A study of Saccharomyces cerevisiae with 2 samples.

Results

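The probes described here are those for the mitochondrial genome of budding yeast on a tiling microarray of the whole genome. They are the experimental probes that the array places on the mitochondrial chromosome, and they are what remains of the array's 41775 probes once its 41480 nuclear probes are taken away. No measured value was used to choose them. The array annotates each one by gene and by class, with 85 inside coding regions, 55 in promoters (upstream of a gene), 36 downstream of a gene and 119 without annotation.

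In the experiment, Myc-tagged histone H3 was immunoprecipitated from strain MDY510 and compared with whole cell extract (WCE) of the same strain. The cells were arrested with alpha factor, a mating pheromone that stops MATa cells in G1, without induction by galactose. Chromatin was sonicated, the precipitate taken with a monoclonal anti-Myc antibody, and 3 µg of amplified RNA labelled. The labels put the Myc-H3 IP in Cy5 and the WCE in Cy3 on both of the 2 arrays, replicates 1 and 2 of 1 group, and they describe linear amplification from up to 75 ng under the IP channel. There was no dye swap, so dye, labelled material and amplification cannot be told apart in any ratio.

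The mitochondrial genome of yeast is a small, many-copied DNA. It encodes subunits of the respiratory chain and of ATP synthase, 1 ribosomal protein, and the ribosomal and transfer RNAs used to translate them. Several of its genes hold introns with reading frames of their own, which encode maturases and homing endonucleases. Mitochondrial DNA is packed by the protein Abf2 and carries no nucleosomes, so an H3 precipitate should be poor in it. The purpose of the comparison here was to see how both channels measured this DNA, gene by gene and probe by probe.

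Mitochondrial probes had a higher median signal in Cy5 than in Cy3 on both arrays, and the cause was not tested. Their median signal was 1075 and 1079 in Cy5 (arbitrary units of processed intensity, replicates 1 and 2) and 49.7 and 48 in Cy3. The nuclear medians were 1631 and 1649 units for Cy5, with 1594 and 1591 units for Cy3. The mitochondrial median was thus 1.52-fold below the nuclear one in the channel labelled IP and 32.6-fold below it in the channel labelled WCE, where it lay nearer to the 684 negative control spots. Median signals of those spots were 13.1 and 13.4 units for Cy5, with 9.98 and 10.6 units for Cy3. Over the 230 probes kept for ratios (no flagged spot, and Cy3 well above background on both arrays) the mitochondrial median in Cy5 was 0.34 on the log2 scale above the nuclear one, and over all probes it was -0.61 from it. Directions are given as Cy5 against Cy3 throughout, and which material each dye stands for depends on the labels. An exchange of the labels, which would turn every direction between IP and WCE, was not tested.

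Single mitochondrial probes covered the whole range of the scanner in Cy5. A probe's own hybridisation response is part of its signal, so levels of different probes are given as descriptions. The ratio sets both signals of the same probe against each other, and removes that response only as far as both channels share it. In replicate 1, 61 were under 100 units, 83 between 100 and 1000, and 151 at 1000 or more. In replicate 2 the same bins held 64, 82 and 149. In Cy3, 238 and 251 probes were under 100 units and 1 was at 1000 or more on each array. As many as 132 and 131 mitochondrial probes were brighter than the nuclear median in Cy5, against 0 and 0 in Cy3.

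**Figure D1:**
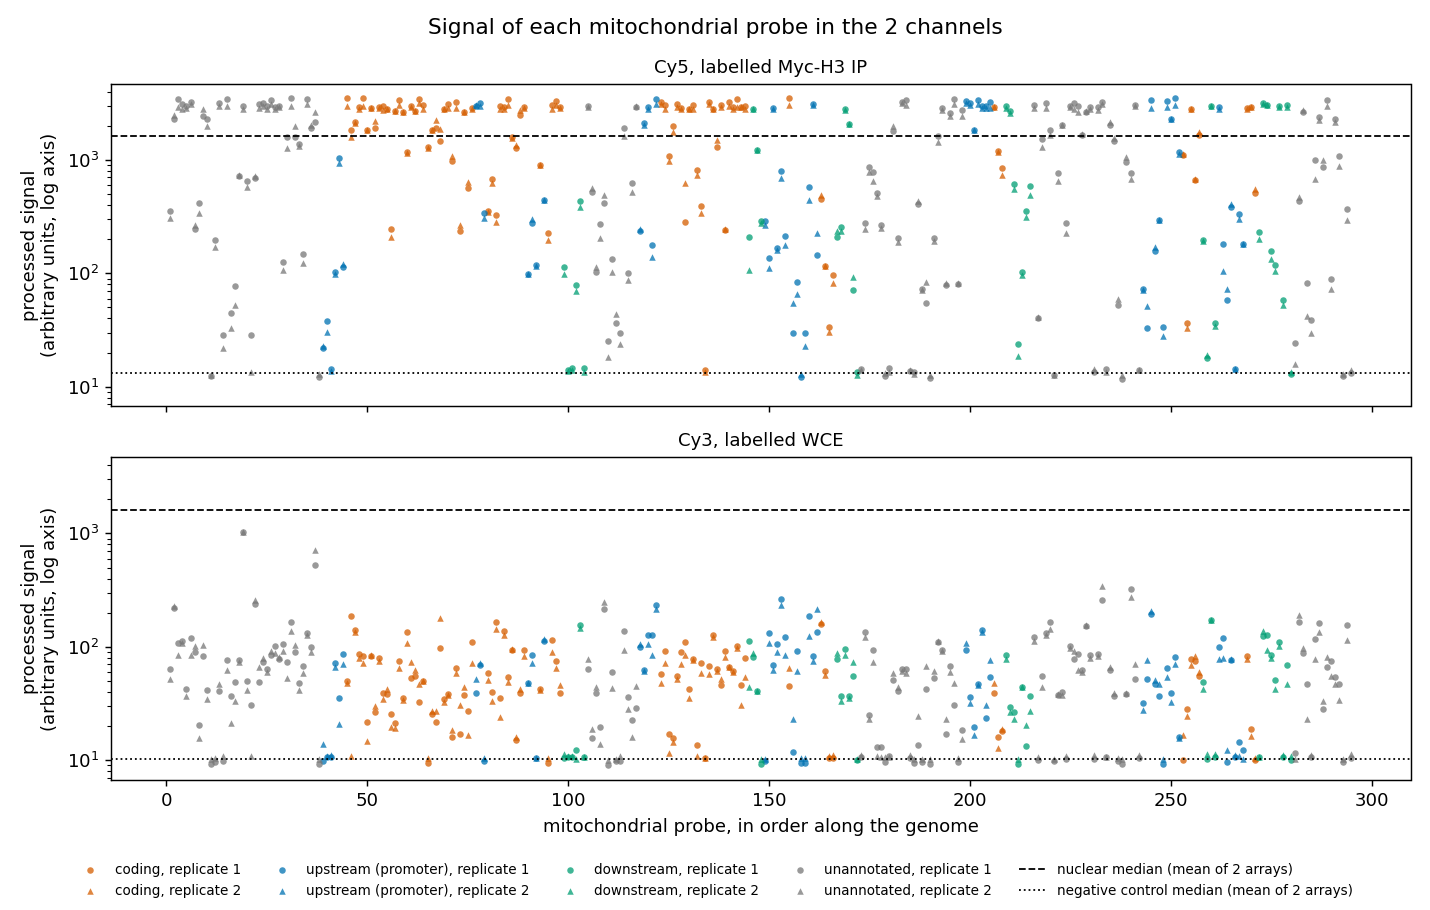
Processed signal (arbitrary units, log axis) of each mitochondrial probe in order along the genome, with Cy5 above Cy3; colour gives the annotated class, circles replicate 1 and triangles replicate 2, the dashed line the nuclear median and the dotted line that of negative controls. In Cy5 the probes run between the control level and the ceiling of the scanner, and in Cy3 all lie below the nuclear median.

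The scanner's own flags showed the same contrast between channels. In Cy5, 29.8% of mitochondrial probes in replicate 1 and 30.8% in replicate 2 were saturated, against 5.98% and 8.33% of nuclear ones. No mitochondrial probe was saturated in Cy3, against 6.15% and 4.77% of nuclear ones. Saturation in Cy5 recurred on both arrays for 87 mitochondrial probes and occurred on 1 array for 5. Saturated mitochondrial spots had processed signals of 2784 to 3490 in replicate 1 and 2734 to 3180 in replicate 2. A ratio from such a spot is therefore a lower limit.

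At the other end, 270 mitochondrial probes were well above background in Cy5 on both arrays, and 231 were in Cy3. In neither channel on either array were 22 probes well above background. Of these, 14 had no annotation, 5 were downstream of genes, 3 were in promoters and 0 were coding. The promoter ones belonged to COX1, VAR1 and COX3, the downstream ones to ATP6 (3 probes), VAR1 and COX3. No probe was well above background on both arrays in Cy3 and on neither in Cy5. Of nuclear probes, 99.9% passed that flag in either channel of either array.

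A further 28 probes were well above background on both arrays in Cy5 and on neither in Cy3, so only a lower bound of the ratio exists for them. Each bound divides the Cy5 signal by the higher of the probe's own Cy3 signal and the lowest Cy3 signal among probes well above background. It ran between at least 1.7-fold and at least 124-fold, with a median of 5.2-fold. The highest belonged to a coding probe of AI3, an intron reading frame of COX1, at positions 19635 to 19694, with 1302 and 1282 units in Cy5. A coding probe of COX3 at 79827 to 79886 had 506 and 551 units in Cy5, which was at least 50.8-fold higher than in Cy3. Positions follow the array's own numbering. Its genome build is not named in the labels or files used here.

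**Figure D2:**
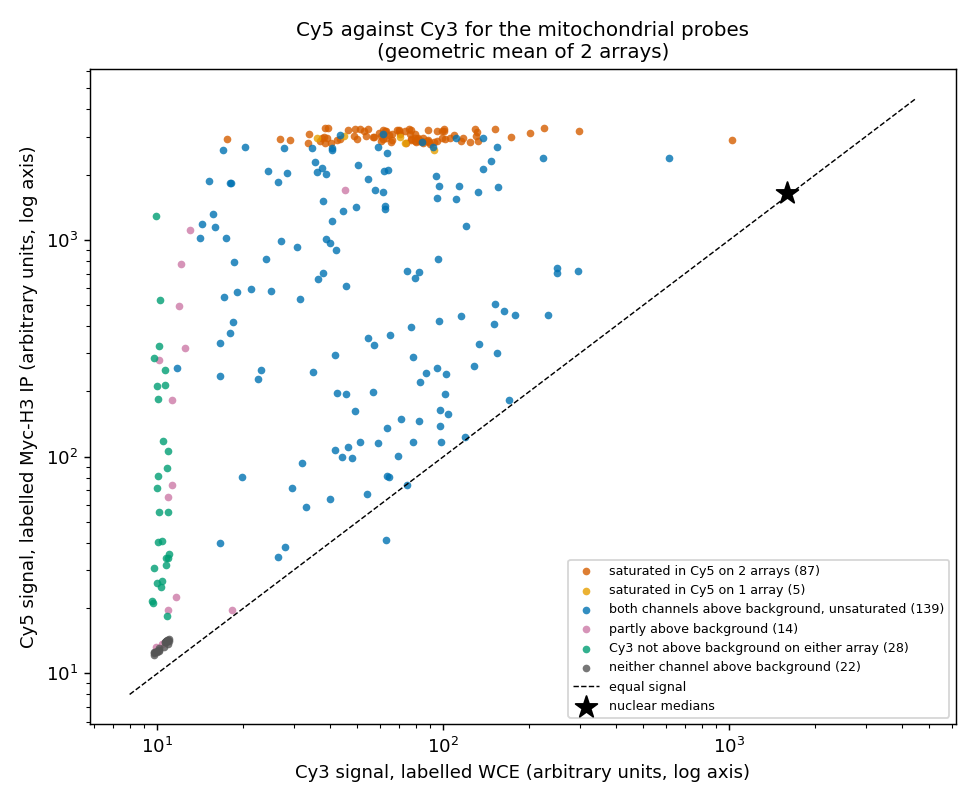
Cy5 signal (vertical) against Cy3 signal (horizontal) of all mitochondrial probes, each the geometric mean of 2 arrays in arbitrary units on log axes; colour gives the scanner flags, the dashed line equal signal and the star the nuclear medians. A total of 87 probes are saturated in Cy5 on both arrays, 28 are dim in Cy3 alone and 22 in both channels.

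Across all mitochondrial probes, Pearson's r of log2 Cy5 and log2 Cy3 was 0.61 on each array. Over the 230 kept probes it was 0.15 in replicate 1 and 0.18 in replicate 2. Over nuclear probes it was 0.88 on each array. These correlations are descriptions across probes of 1 array, which share their hybridisation, and saturation in Cy5 and the filter on Cy3 narrow the mitochondrial ones. Each channel by itself recurred closely between arrays: over all mitochondrial probes r was 0.997 for Cy5 and 0.960 for Cy3.

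The ratio of a probe is its log2 Cy5 signal less its log2 Cy3 signal, set to a median of 0 over all kept probes of an array. The median over the 230 kept mitochondrial probes was 4.77 and 4.91 on the 2 arrays, and exceeded the nuclear median by 4.84 ± 0.10 (SD, n = 2). With 2 arrays an exact sign-flip permutation test cannot give a p below 0.5, so this difference carries no test of its own. In the limma fit over all 40890 kept probes (adjusted p under 0.05 after Benjamini-Hochberg), 227 mitochondrial probes were higher in Cy5, 1 was lower and 2 did not pass. Of all kept probes, 39.4% were called higher and 39.4% lower, so a call by itself says little on this array, and the size of the ratio says more. Without probes saturated in either channel the median difference was 3.66, with 137 of 139 called higher. Normexp background correction brought it to 0.90 with 128 calls, and a further loess step to 0.64 with 0 calls by limma, also at an unadjusted p under 0.05.

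Size set the mitochondrial probes apart. The ratio was above 0 on both arrays for 228 of the 230, and 208 had a mean log2 ratio of 1 or more. It reached 3 or more in 169, against 9 of 40660 nuclear probes, and 5 or more in 102, against 0 nuclear probes. The highest nuclear ratio was 3.68, and 158 mitochondrial probes lay above it. The median between-array SD was 0.09 for mitochondrial and 0.03 for nuclear probes. The fit used a common SD of 0.05, which is narrower than the mitochondrial spread, so mitochondrial calls on small ratios rest on a spread that is too small for them.

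Among kept probes, the highest ratios came from those that were bright in Cy5 and barely above background in Cy3. A coding probe of COX3, which encodes subunit III of cytochrome c oxidase, at 79512 to 79571 had 2946 and 2900 units in Cy5 and 18.7 and 16.4 in Cy3. Its log2 ratio was 7.37 ± 0.13 (SD, n = 2), and it was saturated in Cy5. The next were an unannotated probe at 58992 to 59051 (7.25 ± 0.08), a probe of AI2 at 17280 to 17339 (7.04 ± 0.13), and a probe of BI2 at 37298 to 37357, which had 6.95 and 6.94. The fifth, upstream of SCEI at 60675 to 60734 and saturated on both arrays, had 6.76 ± 0.28. The AI3 probe described above was not kept, and its bound of at least 6.96 on the log2 scale lies within this range.

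The lowest ratios were upstream of genes in 4 of 5 cases. The probe at 72542 to 72601 in the promoter of COX2, the gene of cytochrome c oxidase subunit II, had 32.9 and 51.9 units in Cy5 and 51.8 and 76.4 in Cy3. It was the only mitochondrial probe called lower, at -0.62 ± 0.09 (limma adjusted p = 3.75e-62). Probes upstream of VAR1 at 47221 to 47280 and of OLI1 at 45068 to 45127 did not pass, at -0.02 ± 0.18 and 0.05 ± 0.03 (limma adjusted p = 0.589 and 0.222). A second VAR1 promoter probe, at 48708 to 48767, had 145 and 228 units in Cy5 and 135 and 214 in Cy3, a ratio of 0.09 ± 0.01. The unannotated probe at 8262 to 8321 had 0.24 ± 0.01. All 5 were well above background in both channels.

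The brightest mitochondrial probes in Cy3 were still below the nuclear median. An unannotated probe at 5237 to 5296 had 3005 and 2808 units in Cy5, saturated, and 1018 and 1026 in Cy3, which gave log2 ratios of 1.54 and 1.46. The probe at 11525 to 11584, in the same unannotated stretch before COX1, had 2172 and 2649 units in Cy5, and had 529 and 719 in Cy3. The next brightest were at 69461 to 69520 (261 and 343 units in Cy3), at 71170 to 71229 (322 and 273) and upstream of OLI1 at 46267 to 46326 (265 and 234). Each of the 5 was brighter in Cy5 than in Cy3 on both arrays.

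Coding probes stood above the other mitochondrial classes in median Cy5 signal. Their median Cy5 signal was 2673 and 2700, against 293 and 302 in promoters, 220 and 218 downstream, and 781 and 722 in unannotated DNA. In Cy3 the same classes had 50.1 and 48.8, 54.6 and 60.8, 36.9 and 34.2, and 50.8 and 48.2. On the log2 scale promoters were -3.18 ± 0.019 from coding probes in Cy5 and 0.22 ± 0.14 in Cy3 (SD, n = 2). Downstream probes were -3.62 ± 0.019 from coding probes in Cy5 and -0.48 ± 0.051 in Cy3. Each of these exceeded its SD between arrays, the promoter difference in Cy3 by the least. In both channels the quartile ranges of the classes overlapped, and many coding probes lay at the saturation ceiling in Cy5. Of the coding probes, 35 are in intron frames of COX1, 17 in those of COB and 3 in that of the 21S rRNA gene.

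**Figure D3:**
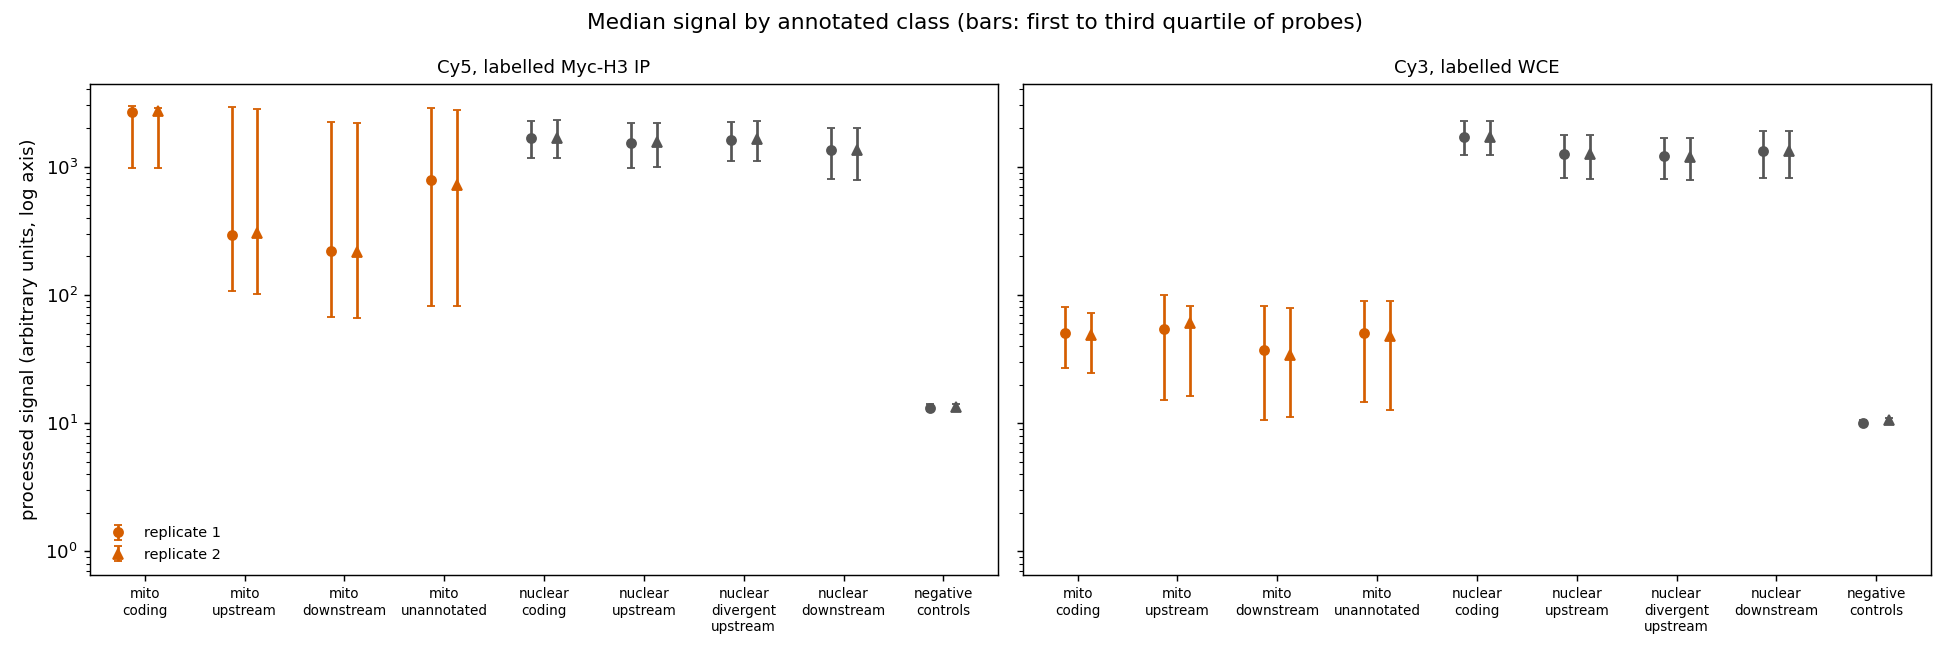
Median processed signal (arbitrary units, log axis) of each annotated class, mitochondrial classes in orange to the left of nuclear classes and negative control spots in grey, with Cy5 in the left panel and Cy3 in the right; bars run between the first and the third quartile of probes, circles are replicate 1 and triangles replicate 2. Mitochondrial coding probes have the highest medians in Cy5, 2673 and 2700, and the mitochondrial classes lie close together in Cy3.

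The ratios followed. Over kept probes the median log2 ratio was 5.46 ± 0.017 for 76 coding probes, 3.32 ± 0.13 for 42 promoter probes, 4.34 ± 0.22 for 23 downstream probes and 4.62 ± 0.022 for 89 unannotated ones (SD, n = 2). The limma fit called all 76 coding, all 23 downstream and all 89 unannotated probes higher, and 39 of the 42 promoter probes. Of kept nuclear probes, 30.7% of coding, 39.5% of downstream and 61.9% of promoter ones were called higher, and 39.4% of all kept probes. Coding probes were 0.98 ± 0.058 above the other mitochondrial classes together. Saturation in Cy5 on both arrays was also commoner among coding probes, in 47.1%, against 25.5% of promoter, 22.2% of downstream and 21% of unannotated ones. Among kept probes that were not saturated, coding stood 3.23 ± 0.23 above promoters, a wider gap than with saturated ones included.

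In nuclear DNA, promoters stood above coding probes instead. Promoter minus coding was -2.15 ± 0.11 for mitochondrial and 0.24 ± 0.019 for nuclear probes, a difference between them of -2.39 ± 0.13 (SD, n = 2). The mitochondrial promoter class is mixed, so its median does not stand for upstream DNA alone. Regions labelled as promoter of SCEI, Q0255 and AI5_BETA averaged 5.85, 5.82 and 5.74, and the other tested promoters 3.07 or less. Downstream minus coding was -1.12 ± 0.20 for mitochondrial and 0.03 ± 0.0047 for nuclear probes. The mitochondrial downstream value depended on the processing, at -2.70 with no filter on Cy3 and -2.47 without saturated probes. In single-channel levels, nuclear promoters were -0.12 ± 0.0057 from nuclear coding probes in Cy5 and -0.45 ± 0.0052 in Cy3 on the log2 scale.

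Gene regions were taken as the mean of the kept probes of 1 gene in 1 class, where at least 2 were kept. All 16 mitochondrial coding regions tested were higher in Cy5 in the limma fit over 7679 gene regions, with values between 1.24 and 6.25 and a median of 5.35 on the log2 scale. Over all gene regions 47.1% were called higher and 37.2% lower. Of 4996 nuclear coding regions, 33.7% were called higher, and the highest stood at 2.77. All 10 mitochondrial promoters tested were also higher, at 1.45 to 5.85, as were all 5 downstream regions, at 3.06 to 4.30. Of nuclear regions, 68.7% of promoters and 54.2% of downstream regions were called higher, and the highest stood at 2.35 and 1.53. With normexp and loess, 0 of these 31 regions passed limma's adjusted threshold, and 24 had an unadjusted p under 0.05. AAP1 and OLI1 had 1 coding probe each and were not tested.

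Among cytochrome c oxidase genes, COX1 (subunit I) had 7 coding probes with median signals of 2915 and 2798 in Cy5, with 53.9 and 48.8 in Cy3. Its mean ratio was 5.50 ± 0.08, and 4 of its 7 probes were saturated. These probes lay at 25307 to 26673, behind the intron reading frames that the array annotates separately. COX3 had 2841 and 2823 in Cy5 and 18.7 and 16.4 in Cy3 over 3 probes, and its ratio of 6.25 ± 0.11, from the 2 kept, was the highest coding mean among kept probes. Both are saturated, and with no filter on Cy3 the median of COX3 was 5.68, below AI3 at 6.24 and SCEI at 6.06. No probe is annotated as COX2 coding on the array, and the 6 probes annotated as its promoter, 1 of them saturated, had medians of 115 and 120 in Cy5, with 41.9 and 49.4 in Cy3. The 4 probes after them, where COX2 itself would lie, are annotated as promoter of Q0255. Those had medians of 2811 and 2602 in Cy5, with 52.1 and 43.6 in Cy3.

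COB encodes cytochrome b, the mitochondrially encoded subunit of the bc1 complex. Its 5 coding probes were all saturated in Cy5 on both arrays, at 2900 to 3450 units in replicate 1 and 2797 to 2981 in replicate 2. Their mean ratio of 5.56 ± 0.12 is therefore a lower limit. The 5 promoter probes of COB spread over 177 to 3445 units in Cy5 in replicate 1 and 139 to 3108 in replicate 2, and averaged 3.07 ± 0.08.

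The ATP synthase genes were uneven in Cy5. ATP6 (subunit a) had medians of 2973 and 2834 in Cy5, with 57.3 and 55.7 in Cy3 over 4 coding probes, and a ratio of 5.47 ± 0.04 over the 3 kept, all saturated, while the fourth had 228 and 198 units in Cy5. OLI1 (subunit c) had a single coding probe, with 3476 and 3031 units in Cy5, and had 45.6 and 65.1 in Cy3. The single probe of AAP1, which encodes subunit 8, had 894 and 910 in Cy5, below the mitochondrial median, and 42.7 and 41.3 in Cy3. Of the 6 probes downstream of ATP6, only 1 was kept, and 3 were above background in neither channel.

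VAR1, the gene of the small mitochondrial ribosomal subunit's protein Var1, was the exception among coding regions. Its 4 probes had medians of 106 and 98.9 units in Cy5, with 35.7 and 34.1 in Cy3. The 2 kept probes, at 49041 to 49100 and 49275 to 49334, had ratios of 1.52 ± 0.07 and 0.96 ± 0.09. The other two were dim in Cy3 alone, at least 2.96-fold and at least 8.13-fold higher in Cy5. The VAR1 mean of 1.24 ± 0.08 was the lowest of the 16 coding regions, below the next by more than the spread between arrays.

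That next gene was AI5_BETA, an intron reading frame of COX1, at 2.60 ± 0.10 from 3 probes. The other intron frames of COX1, which encode reverse transcriptase-like maturases (AI1, AI2) and homing endonucleases (AI3, AI4, AI5_ALPHA), had higher ratios. AI1 had 5.54 ± 0.07 over 9 kept probes, AI2 5.32 ± 0.01 over 8 and AI4 5.38 ± 0.12 over 7. AI3 stood at 6.11 ± 0.18, and AI5_ALPHA at 5.26 ± 0.31. Saturation in Cy5 on both arrays touched 6 of 10 probes of AI1, 3 of 8 of AI2, 2 of 4 of AI3, 2 of 7 of AI4 and 1 of 3 of AI5_ALPHA, so these frames are not ranked.

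The maturase frames in the introns of COB gave 5.32 ± 0.29 (BI2), 4.62 ± 0.08 (BI3) and 4.41 ± 0.08 (BI4). BI4 also held the dimmest coding probe of the genome, at 40427 to 40486, with 14 and 13.4 units in Cy5 and 10.4 and 10.4 in Cy3. It was above background in Cy5 on 1 array only. SCEI, which encodes the endonuclease I-SceI within the intron of the 21S rRNA gene, had medians of 1191 and 1168 in Cy5, with 18.3 and 18.7 in Cy3, and a ratio of 5.94 ± 0.04. The reading frame Q0255 had 3.39 ± 0.04, with probes between 36.3 and 2803 units in Cy5 in replicate 1 and between 32.7 and 2785 in replicate 2.

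**Figure D4:**
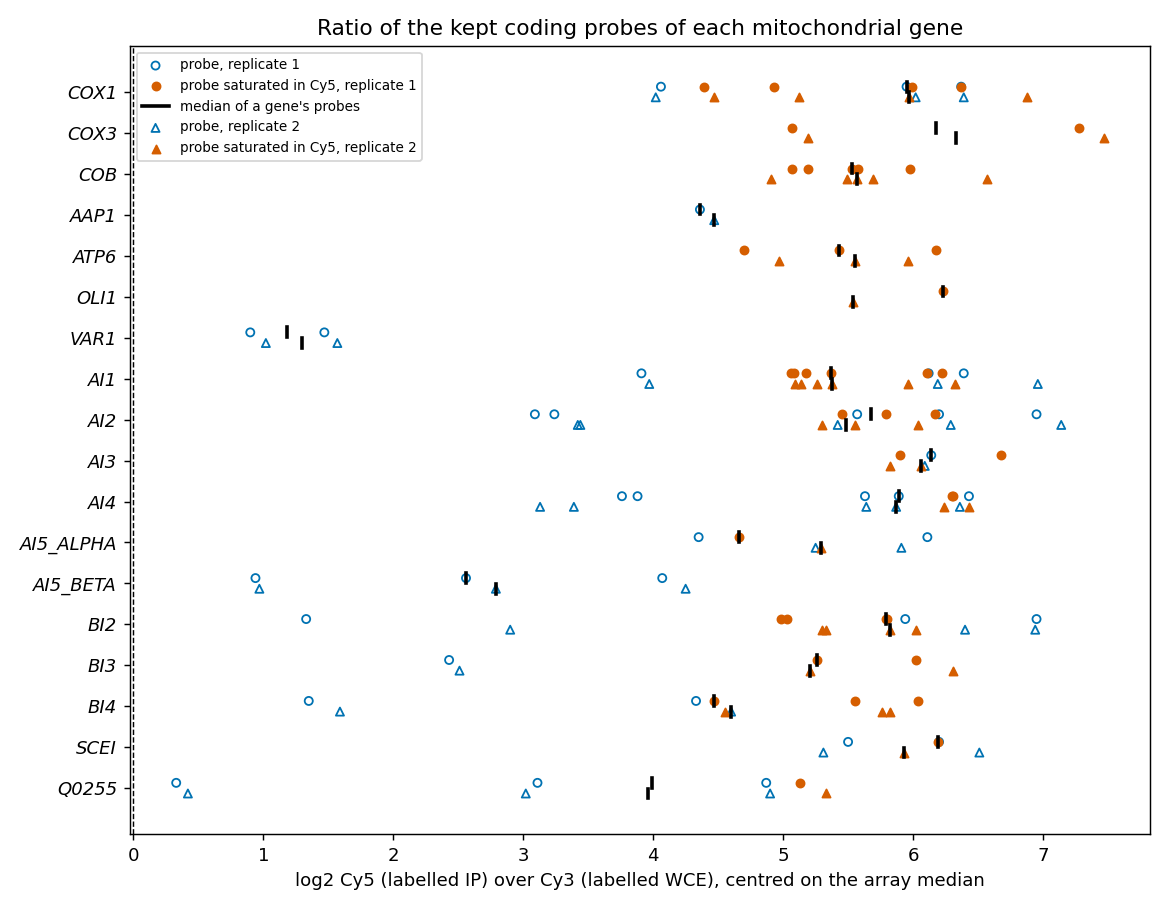
Log2 Cy5 over Cy3 (with the array median at 0) of every kept coding probe of each mitochondrial gene, circles for replicate 1 and triangles for replicate 2, with filled orange symbols for probes saturated in Cy5 on 1 or 2 arrays and black ticks for the median on each array. The probes of VAR1 lie at 0.90 to 1.57, and the median ticks of most other genes lie above 4.

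Probes labelled as promoter were not all dim. The 7 probes that the array assigns to the SCEI promoter had medians of 3151 and 2886 in Cy5, with 46.6 and 46.1 in Cy3, and a mean ratio of 5.85 ± 0.09. In the R64 gene order this stretch follows the start of the 21S rRNA gene, which has no annotation of its own on the array. The 4 probes labelled as promoter of Q0255 directly follow those of COX2, where COX2 itself would lie, and averaged 5.82 ± 0.07. The 2 kept probes labelled as promoter of AI5_BETA, an intron frame of COX1, averaged 5.74 ± 0.16. They lie between the promoter and the coding probes of COX1, so within that gene. These labels therefore need not mark DNA upstream of a gene. By contrast the promoters of AAP1 (1.45 ± 0.14), VAR1 (1.66 ± 0.08), OLI1 (1.74 ± 0.09) and COX2 (1.82 ± 0.04) had lower means. So had those of COX1 (2.08 ± 0.26), COX3 (2.62 ± 0.05) and COB (3.07 ± 0.08). These were mixed too. Their highest kept probe stood at 5.41 for OLI1, 5.26 for VAR1, 5.17 for COX1, 5.05 for COB and 5.02 for COX3. It stood at 3.94 for COX2 and 1.87 for AAP1.

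The unannotated probes fell into 5 stretches, which by the order of genes in R64 hold many of the RNA genes, but not all of them. All 19 gene names on the array matched that gene table, 1 of them by a synonym (AAP1 for ATP8), and 27 of its 46 mitochondrial genes, including 24 tRNAs and 2 rRNAs, had no name on the array. The 38 probes before COX1, where the 15S rRNA gene and 2 tRNAs lie, had medians of 2034 and 2024 in Cy5, with 74.9 and 69.4 in Cy3. The 27 between SCEI and COX2, where 16 tRNAs lie, had 1653 and 1664 in Cy5 and 55.3 and 59.9 in Cy3. Both stretches were near the nuclear median in Cy5.

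The 3 other stretches were dimmer in Cy5. The 26 probes between VAR1 and SCEI, a stretch that includes 21S rRNA sequence, had medians of 272 and 248 in Cy5, with 22 and 23.8 in Cy3. The 13 between ATP6 and COB had 273 and 204 in Cy5, and had 28.9 and 28.3 in Cy3. The 15 after COX3, near RPM1 (the RNA of mitochondrial RNase P), had 431 and 475 in Cy5 and 54.3 and 46.7 in Cy3. Over kept probes the ratios of the 5 stretches, in genome order, were 4.47 ± 0.12, 3.89 ± 0.16, 4.72 ± 0.22, 4.82 ± 0.07 and 3.96 ± 0.13. All kept probes of each were called higher in the limma fit, against 39.4% of all kept probes of the array. Which probes lie inside an rRNA or tRNA gene could not be read without the array's genome build.

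Neighbouring mitochondrial probes, at a median spacing of 273 bp, differed 10-fold or more in Cy5 in 96 of 294 pairs in replicate 1 and in 98 in replicate 2. Their median absolute step in log2 Cy5 was 1.84 and 1.82, against 0.67 and 0.66 for nuclear neighbours. The correlation between mitochondrial neighbours was 0.24 on each array for log2 Cy5, and 0.08 and 0.03 for log2 Cy3, against 0.11 and 0.27 on each array for nuclear neighbours in the same channels. These are descriptions across overlapping pairs of probes that differ in their own response. In windows of 5 kb the median ratio was highest at 5.97 ± 0.06 between 15 and 20 kb. All 17 probes there are annotated as coding, in the intron frames AI1, AI2 and AI3 of COX1. It was lowest at 1.26 ± 0.04 between 45 and 50 kb, which holds most promoter probes of OLI1, those of VAR1 and the coding probes of both. The single OLI1 coding probe there stood at 5.89 ± 0.48. Windows of 10 kb levelled the range out, with medians between 4.39 and 5.38.

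Probe length varied little. Only 7 mitochondrial probes, 2.37%, were shorter than the nominal 60 nt, against 31.9% of nuclear ones. None of the 7 was coding, and their Cy5 signals of 2422 to 3401 in replicate 1 and 2676 to 3017 in replicate 2 were all high. The probes of 60 nt had medians of 989 and 952 in Cy5. The part of probe length in these values was not tested, and probe sequences and base composition were not used here.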

How the data were processed

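The members and the gene roles were chosen with earlier results of these data known. The spot intensity values were deposited by the authors as written by Agilent Feature Extraction 9.1.3.1 (array design 014810), with background subtraction, detrending and dye normalisation, per the file headers. The log10 ratio column of the deposited files was not used. A value table deposited by the authors gives log2 ratios, which match the processed signals within 5e-06.

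Log2 ratios of processed Cy5 over Cy3 signals had the median of each array subtracted, and no loess was run. Probes with a spot flagged non-uniform or as population outlier were left out, as were those without Cy3 well above background on each array. This left out 65 mitochondrial probes, 64 for Cy3 and 1 for a flagged spot. Saturated spots were kept. Probes, and gene regions with at least 2 kept probes, were tested against 0 with limma 3.58.1 in R 4.3.3, Benjamini-Hochberg adjusted over the whole array at a threshold of 0.05. The fit was also run on simulated ratios with SDs shrunk towards its own common SD. That run cannot show how it behaves at the wider mitochondrial spread. The text names every mitochondrial gene with a probe, the 5 highest and 5 lowest ratios, the 5 probes brightest in Cy3, and counts of flagged probes. The arrays share 1 slide, which leaves no batch to test, and the number of arrays limits the precision. Nothing in the labels ties the replicates to separate cultures, so p-values reflect a spread between 2 arrays that may be technical. The contrasts of promoters and downstream regions with coding regions and the variance trend were added after seeing the data.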

Additional observations from a re-analysis of the deposited data

Results flagged for a closer look

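The class contrasts of mitochondrial and nuclear probes had opposite signs on both arrays, and these differences were not tested. For downstream probes the nuclear contrast was only 0.03, so there the signs differ but the nuclear classes hardly do. Promoter minus coding median log2 ratio was -2.15 for mitochondrial and 0.24 for nuclear probes. The mitochondrial promoter class includes bright probes labelled to SCEI, Q0255 and AI5_BETA, so its median does not stand for upstream DNA alone. Downstream minus coding was -1.12 for mitochondrial and 0.03 for nuclear probes, and the mitochondrial value was -2.70 with no filter on Cy3 and -2.47 without saturated probes.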

How the results depend on the processing

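With normexp background correction (offset 50) the mitochondrial minus nuclear difference was 0.90, and with a loess step after it 0.64, from 1.05 in replicate 1 and 0.22 in replicate 2. It was 4.43 with no filter on Cy3 and 3.66 without saturated probes. Normexp took mean backgrounds of 27320 to 35340 units as its estimate, against median mitochondrial Cy3 inputs of 1319 and 1174 (mean spot signal less local background, not the processed signal), so it fits most signal as background here. Under normexp 128 mitochondrial probes were called higher (167 at an unadjusted p under 0.05), and 0 with loess (0 unadjusted). Without saturated probes 137 of 139 were. The probe called lower was lost in both, with 0 calls each (0 unadjusted). Of 31 gene regions, 0 were called with loess (24 unadjusted).

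Coding minus other classes was 0.55 with normexp, 1.65 without saturated probes and 1.84 over all mitochondrial probes. Mitochondrial promoter minus coding was -2.89 with no filter, -0.75 with normexp, -0.82 with loess added and -3.23 without saturated probes. The nuclear value was 0.19, 0.07 and 0.26 in the last 3. Mitochondrial downstream minus coding, in the same order, was -2.70, -0.79, -0.88 and -2.47, and the nuclear value in the last 3 was 0.12, 0.02 and 0.04. Mitochondrial signal relative to the nuclear median was -0.55 in Cy5 and -4.83 in Cy3 from mean signals less local background. Over kept probes only it was 0.34 in Cy5, a turned sign, and -4.66 in Cy3, where the filter takes away dim probes by construction. Windows of 10 kb had 5.38 and 4.39 as highest and lowest. The VAR1 promoter median was -0.00 with normexp and loess. The causes of the other changes were not tested.

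Leaving out an array gave 4.77 to 4.91 for the mitochondrial minus nuclear difference, 0.94 to 1.03 for coding minus other classes, -2.23 to -2.06 (mitochondrial) and 0.23 to 0.25 (nuclear) for promoter minus coding, and -1.27 to -0.98 (mitochondrial) and 0.03 (nuclear) for downstream minus coding. It gave -0.61 to -0.60 for Cy5 and -5.05 to -5.00 for Cy3 relative to the nuclear median. No test is possible on 1 array. Of the 39 medians per class and gene region, 39 moved by more than 1 SD between arrays with normexp and 20 with no filter on Cy3. Without saturated probes 34 of them could be computed, and 22 moved. No paired analysis was possible because there is 1 group. Ratios of saturated probes are lower limits, and 52 probes have no measured Cy3 on either array.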
